A study of Mus musculus with 10 samples.

Results

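The 9 genes described here encode the enzymes that carry farnesyl diphosphate, through squalene and the sterol ring, towards cholesterol. They are Fdft1, Sqle, Lss, Cyp51, Msmo1, Nsdhl, Hsd17b7, Sc5d and Dhcr7, chosen by gene symbol for their place in the pathway. All 9 were found among the 47729 genes of the deposited expression table, and all 9 were among the 12395 genes abundant enough to be tested. The study compared livers of female mice with a full-body knockout (KO) of Etnppl, an enzyme that breaks down phosphoethanolamine, with livers of wild-type (WT) mice. Both genotypes received chow for 8 weeks, followed by 10 weeks on a high-fat diet in which fat supplied 45% of kcal. Each group had 5 samples, KO1 to KO5 and WT1 to WT5, with 1 paired-end library of poly(A)-selected RNA per sample. The sources used here do not say which part of Etnppl was deleted. Nothing in the labels says that the 5 samples of a group came from separate animals, so each p measures the spread between these samples, which may be technical.

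Cholesterol is built from acetyl units through mevalonate to farnesyl diphosphate, from which several products branch off. Squalene synthase is the first enzyme committed to sterols, squalene epoxidase then adds oxygen, and lanosterol synthase closes the chain into the ring system. The enzymes after it strip extra methyl groups from the ring and move or reduce its double bonds. In liver, transcription of nearly the whole pathway is driven by the transcription factor SREBP2, which is held inactive in the endoplasmic reticulum when sterols are plentiful.

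Etnppl itself was measured at 8.79, 7.75, 10.19, 7.36 and 9.35 FPKM (fragments per kilobase of transcript, scaled to library size) in KO1 to KO5. The WT values, WT1 to WT5, were 27.57, 56.55, 32.99, 36.68 and 30.63 FPKM. The groups did not overlap, and the KO mean was 23.6% of the WT mean. In limma, 8 genes (0.0645% of those tested) had an adjusted p under 0.05, among them Etnppl at an adjusted p of 0.000387. Hepatocyte markers fitted the liver label: the 5 of 6 listed markers with a row in the table (Alb, Apoa1, Ttr, Ahsg and Fgb) summed to between 61160 and 72040 FPKM in KO livers and to between 53950 and 65220 FPKM in WT livers. Estimated depth was 21000000 to 28200000 fragments per library in KO livers and 21900000 to 25100000 in WT livers. KO3 stood apart in pancreatic enzyme transcripts, with a sum of 102.5 FPKM over 6 markers, the highest of the KO libraries. The lowest KO library had a sum of 0 FPKM, and no WT library exceeded 0.81 FPKM.

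Of the 9 sterol ring enzymes, 8 averaged higher in KO than in WT livers on the scale of log2(FPKM + 0.5), and Sc5d averaged lower. Among all genes tested, 34.9% averaged higher in KO livers. The median log2 fold change of the 9 enzymes was 0.53, and that of all genes tested was -0.05. None of the 9 passed an adjusted p of 0.05 in limma over all genes tested, and the smallest adjusted p among them was 0.1997, that of Lss. At an unadjusted p under 0.05, 7 of the 9 were higher in KO livers and 0 were lower, where 2.69% of all genes tested were higher and 9.07% lower. With the library numbers fitted as a block, 4 of the 9 were higher at an unadjusted limma p under 0.05, beside 3.25% of all genes tested. None of the 9 had all 5 KO values above all 5 WT values, as 0.581% of all genes tested had, and none had all 5 below, as 2.21% had. The lean of all genes towards lower KO values depended on scaling. With median-of-ratios scaling their median log2 fold change was -0.001. At an unadjusted limma p under 0.05, 669 genes were then higher and 599 lower, and 7 of the 9 enzymes were still higher. In bulk liver RNA, fewer cells of a type and less RNA per cell cannot be told apart.

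**Figure D1:**
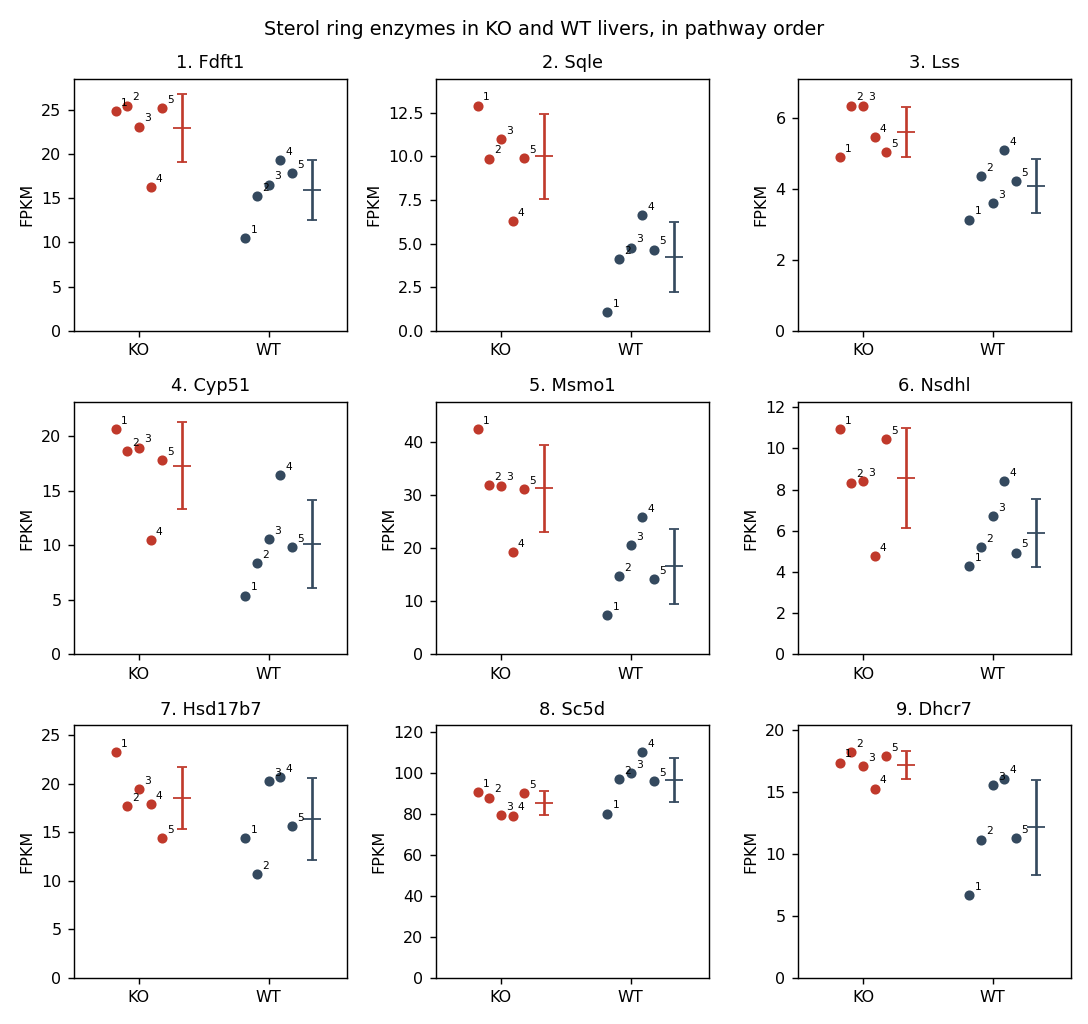
Expression of the 9 enzymes in pathway order. The vertical axis is FPKM from 0, points are single libraries with their replicate number (KO left, WT right), and the bar beside each group is its mean ± SD (n = 5). KO4 is the lowest KO library in 7 of the 9 panels and WT1 the lowest WT library in 8. The groups overlap in every panel.

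Fdft1 encodes squalene synthase, which joins a pair of farnesyl diphosphate molecules (GRCm38 chr14:63145150-63179578, minus strand). Fdft1 was measured at 24.81, 25.45, 23.05, 16.26 and 25.17 FPKM in KO1 to KO5. It was measured at 10.43, 15.22, 16.51, 19.28 and 17.84 FPKM in WT1 to WT5. KO4 fell among the WT values, and the other 4 KO libraries lay above every WT library. Fdft1 averaged 22.95 ± 3.85 FPKM in KO livers and 15.86 ± 3.39 FPKM in WT livers (SD, n = 5 each). Its log2 fold change was 0.53 (95% interval 0.17 to 0.89), with an unadjusted p of 0.00715 and an adjusted p of 0.2281 in limma. Exons of Fdft1 share 774 bases, 18.3% of its exonic length, with Ctsb on the opposite strand. Ctsb was measured at 179.2 FPKM in KO livers and 187.2 FPKM in WT livers, and the sources used here do not give the strand setting of the counting, so reads in the shared bases are of uncertain origin.

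Sqle encodes squalene epoxidase, one of the pathway's control points (chr15:59315077-59331192, plus strand). It had the largest log2 fold change of the 9 enzymes. Sqle was measured at 12.92, 9.88, 11.0, 6.3 and 9.89 FPKM in KO1 to KO5. WT1 to WT5 gave 1.07, 4.11, 4.77, 6.64 and 4.65 FPKM for Sqle. A single pair of libraries crossed, with KO4 just under WT4. Sqle averaged 9.998 ± 2.41 FPKM in KO livers and 4.25 ± 2.02 FPKM in WT livers. Its fitted fold was 2.41 (95% interval 1.36 to 4.25), its adjusted p in limma was 0.2226, and its exact permutation p, two-sided over all 252 ways to assign the genotypes, was 0.0159. The WT1 value was the lowest of all member values, and at the estimated depth it stands for 71 to 74 fragments over the annotated coding transcripts, so counting noise there is small beside the distance to WT2. Without WT1 the log2 fold change was 0.91, against 1.27 with all libraries.

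Lss encodes lanosterol synthase, which folds and closes the oxidised squalene chain (chr10:76531588-76557138, plus strand). Lss was measured at 4.89, 6.35, 6.35, 5.45 and 5.03 FPKM in KO1 to KO5. In WT1 to WT5 Lss stood at 3.13, 4.36, 3.59, 5.1 and 4.21 FPKM. The groups met only at WT4, which lay above KO1 and KO5. Lss averaged 5.61 ± 0.703 FPKM in KO livers and 4.08 ± 0.755 FPKM in WT livers. The fold of 1.34 was among the smaller ones, and the low spread gave Lss the lowest unadjusted p of the 9 enzymes, 0.00435 in limma.

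Cyp51 encodes the cytochrome P450 that takes the first methyl group off lanosterol (chr5:4081145-4104746, minus strand). Cyp51 was measured at 20.66, 18.65, 18.93, 10.46 and 17.8 FPKM in KO1 to KO5. The WT values, WT1 to WT5, were 5.37, 8.37, 10.55, 16.42 and 9.83 FPKM. KO4 sat inside the WT range, just below WT3, while the other 4 KO libraries exceeded WT4, the highest WT library. Cyp51 averaged 17.3 ± 3.96 FPKM in KO livers and 10.11 ± 4.05 FPKM in WT livers. Its fold was 1.74, with an adjusted p of 0.2642 in limma.

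Msmo1, Nsdhl and Hsd17b7 act in turn on the remaining pair of ring methyl groups: Msmo1 oxidises a methyl group, Nsdhl removes it as carbon dioxide, and Hsd17b7 reduces the ketone that is left. Msmo1 (chr8:64718139-64733792, minus strand) was measured at 42.52, 31.91, 31.83, 19.29 and 31.17 FPKM in KO1 to KO5. It was measured at 7.36, 14.78, 20.59, 25.93 and 14.22 FPKM in WT1 to WT5. The pattern was that of Cyp51, with KO4 within the WT range and the other 4 KO libraries above WT4. Msmo1 averaged 31.34 ± 8.23 FPKM in KO livers and 16.58 ± 7.02 FPKM in WT livers, a fitted fold of 1.96 (95% interval 1.20 to 3.19) and an adjusted p of 0.2601 in limma.

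Nsdhl (chrX:72918557-72958514, plus strand) was measured at 10.95, 8.34, 8.42, 4.78 and 10.45 FPKM in KO1 to KO5. WT1 to WT5 gave 4.28, 5.19, 6.7, 8.4 and 4.93 FPKM for Nsdhl. The ranges overlapped widely: KO4 lay below every WT library except WT1, and WT4 was just above KO2. The log2 fold change was 0.49 (95% interval 0.01 to 0.97). The unadjusted limma p was 0.0453, and the exact permutation p was 0.1111. The limma p was above 0.05 without KO1, KO2, KO3, KO5, WT1, WT2 or WT5, each left out alone.

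Hsd17b7 (chr1:169949535-169969241, minus strand) was measured at 23.23, 17.69, 19.43, 17.91 and 14.41 FPKM in KO1 to KO5. In WT1 to WT5 Hsd17b7 stood at 14.35, 10.68, 20.28, 20.69 and 15.65 FPKM. WT3 and WT4 exceeded every KO library but KO1, so the groups were mixed. The log2 fold change of 0.20 had a 95% interval of -0.18 to 0.58 and an adjusted p of 0.6985 in limma.

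Sc5d introduces a double bond into the ring, and its transcript was the most abundant of the 9 and the only one with a lower mean in KO livers (chr9:42251595-42264256, minus strand). Sc5d was measured at 90.66, 88.0, 79.34, 79.27 and 90.18 FPKM in KO1 to KO5. The WT values, WT1 to WT5, were 80.24, 96.93, 100.04, 110.19 and 96.12 FPKM. Every KO library lay below 4 of the 5 WT libraries, and WT1 lay inside the KO range. Sc5d averaged 85.49 ± 5.73 FPKM in KO livers and 96.7 ± 10.78 FPKM in WT livers. The log2 fold change was -0.17 (95% interval -0.35 to 0.01), with an unadjusted p of 0.057 and an adjusted p of 0.435 in limma.

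Dhcr7 encodes the reductase that removes a ring double bond in the last step of one route to cholesterol, and its loss in humans causes Smith-Lemli-Opitz syndrome (chr7:143823145-143848410, plus strand). Dhcr7 was measured at 17.4, 18.23, 17.09, 15.3 and 17.93 FPKM in KO1 to KO5. It was measured at 6.65, 11.17, 15.59, 16.09 and 11.31 FPKM in WT1 to WT5. WT3 and WT4 lay just above KO4, and the other 4 KO libraries exceeded all WT libraries. Dhcr7 averaged 17.19 ± 1.15 FPKM in KO livers and 12.16 ± 3.85 FPKM in WT livers, a fold of 1.46 with an adjusted p of 0.2872 in limma. The KO libraries were close together for Dhcr7, with a coefficient of variation of 6.67% in KO livers and 31.6% in WT livers.

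Promoters are shown for 3 members, the cyclase Lss, the demethylation enzyme Nsdhl and the lower Sc5d, to set members with a higher KO mean beside the exception. The bases are the 250 before the RefSeq start (GRCm38.p6), written on the gene's strand, and capitals mark matches to the motifs named after them.
Lss: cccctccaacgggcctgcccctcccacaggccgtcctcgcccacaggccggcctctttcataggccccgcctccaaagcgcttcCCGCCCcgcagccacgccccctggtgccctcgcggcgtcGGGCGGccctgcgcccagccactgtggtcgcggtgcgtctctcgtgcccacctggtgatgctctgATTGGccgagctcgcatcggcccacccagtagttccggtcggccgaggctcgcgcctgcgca
Nsdhl: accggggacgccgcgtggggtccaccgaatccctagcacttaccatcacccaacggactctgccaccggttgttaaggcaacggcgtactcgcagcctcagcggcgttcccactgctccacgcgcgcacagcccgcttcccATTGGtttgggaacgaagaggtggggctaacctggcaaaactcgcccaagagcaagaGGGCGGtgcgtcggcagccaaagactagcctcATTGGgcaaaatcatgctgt
Sc5d: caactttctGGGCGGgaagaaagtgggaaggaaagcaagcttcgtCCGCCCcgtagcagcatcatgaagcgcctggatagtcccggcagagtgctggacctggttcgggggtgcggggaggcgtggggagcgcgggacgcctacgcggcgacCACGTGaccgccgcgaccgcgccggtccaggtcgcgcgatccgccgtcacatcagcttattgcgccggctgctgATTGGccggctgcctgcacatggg
The stretches are chr10:76531355-76531604 on the plus strand for Lss, chrX:72918271-72918520 on the plus strand for Nsdhl and chr9:42264301-42264550 on the minus strand for Sc5d. RefSeq promoters were matched for 7 of the 9 enzymes, Fdft1 and Sqle being the others, and 4 motifs were searched on both strands from 250 bases before the start to 50 after it. CCAAT, the letters bound by NF-Y, was found in 7 of 7 enzymes and in 41.0% of the 26742 genes with a promoter in the table. GGGCGG, an Sp1 box, was also found in 7 of 7 enzymes, against 38.5% of genes. The E-box CACGTG was found in Hsd17b7, Sc5d and Dhcr7, against 8.11% of genes. TCACNCC, the core of one form of sterol regulatory element, was found in Msmo1 alone among the 7, against 17.4% of genes. Sc5d thus shared CCAAT and GGGCGG with the 6 matched enzymes whose KO means were higher, and a match describes letters only.

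Levels per transcript length differed more between steps than between genotypes. In KO livers the order of mean FPKM was Sc5d, Msmo1, Fdft1, Hsd17b7, Cyp51, Dhcr7, Sqle, Nsdhl and Lss. In WT livers it was Sc5d, Msmo1, Hsd17b7, Fdft1, Dhcr7, Cyp51, Nsdhl, Sqle and Lss. Sc5d stood clear of all others in both genotypes, and Lss was lowest in both. Neighbouring means differed by less than the SD of either gene for Hsd17b7, Cyp51 and Dhcr7 and for Sqle and Nsdhl in KO livers. In WT livers this held for Msmo1, Hsd17b7 and Fdft1, for Dhcr7 and Cyp51, for Nsdhl and Sqle, and for Sqle and Lss. Sqle was above Lss in 5 of 5 KO libraries and in 3 of 5 WT libraries.

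**Figure D2:**
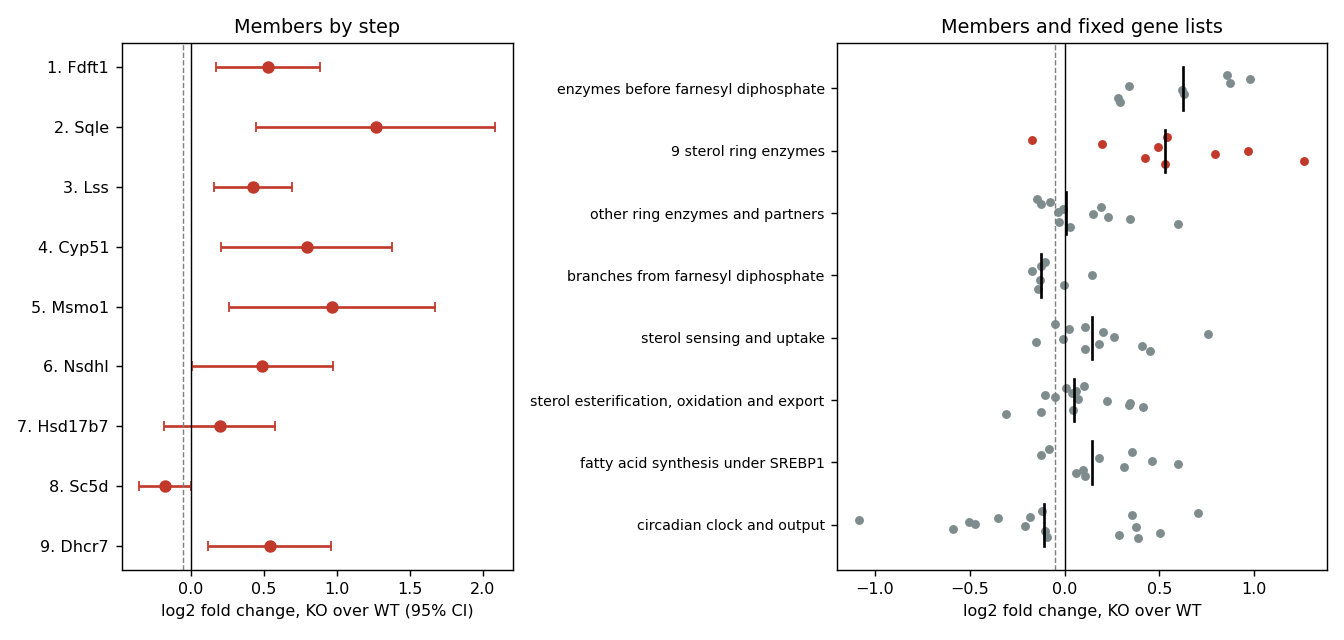
Log2 fold changes, KO over WT, on the scale of log2(FPKM + 0.5). On the left, the 9 enzymes in pathway order with 95% intervals; on the right, each point is a gene of the named list and the black bar the list's median. The solid line is 0 and the dashed line the median of all genes tested, -0.05. The medians of the 9 ring enzymes and of the enzymes before farnesyl diphosphate are 0.53 and 0.63, and those of the other lists lie between -0.13 and 0.15.

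The spread within a genotype was shared by most of the 9 enzymes. Among WT libraries WT4 was the highest for 9 of 9 enzymes, WT3 was the second highest for 7, and WT1 was the lowest for 8, Hsd17b7 being the exception. Among KO libraries KO4 was the lowest for 7 of 9, and KO1 was the highest for 6. After centring within genotype, the correlation of each enzyme with the mean of the other 8 over the 10 libraries was highest for Cyp51 (Pearson r = 0.9754, Spearman rho = 0.927) and Msmo1 (r = 0.9748, rho = 0.952). It was 0.943 for Sqle, 0.903 for Fdft1, 0.898 for Dhcr7, 0.889 for Sc5d and 0.793 for Nsdhl. Sc5d therefore varied with the other enzymes between livers of a genotype although its KO mean was the lower one. Lss (r = 0.496) and Hsd17b7 (r = 0.435) followed the others least. Without WT1 and WT4, the libraries farthest from the median profile, r was 0.96 for Cyp51, 0.94 for Msmo1, 0.593 for Sc5d, 0.637 for Dhcr7 and -0.346 for Lss, so that the value for Lss rests on those libraries. These correlations are descriptions, and the points share library and depth.

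**Figure D3:**
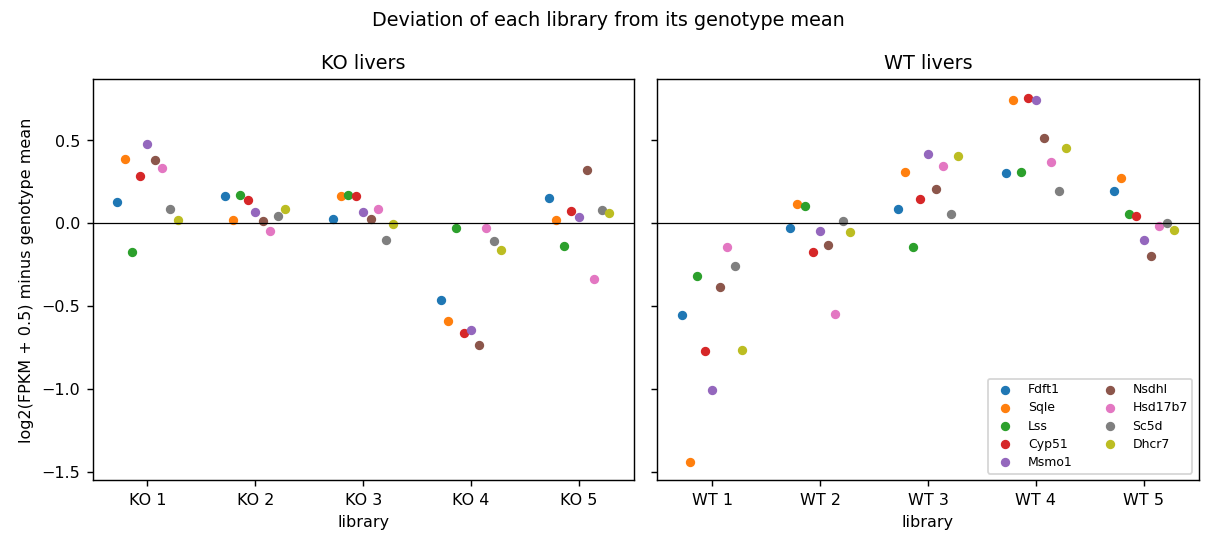
Deviation of each library from the mean of its genotype, in log2(FPKM + 0.5), for the 9 enzymes. Each panel is a genotype (KO left, WT right), each colour an enzyme. In KO4, Fdft1, Sqle, Cyp51, Msmo1 and Nsdhl sit well below the KO mean. WT1 is low and WT4 high for all 9 enzymes.

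The overlap between groups involved mainly KO4 and WT4. Without KO4, 5 of the 9 enzymes (Fdft1, Sqle, Cyp51, Msmo1 and Dhcr7) had all KO values above all WT values, which 0.943% of all genes tested then had. Without WT4 this held for Sqle and Lss, and for 0.994% of all genes tested. These sets were found after the values were seen. With all libraries and another scaling, the groups were apart for Sqle and Lss under median-of-ratios scaling (1.34% of all genes tested) and for Dhcr7 under quantile normalization (1.2%). Leaving out KO4 brought no enzyme past an adjusted p of 0.05, the smallest limma adjusted p being 0.154 for Fdft1.

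The balance between members was examined as the log2 ratio of each enzyme to the one listed before it, in the same library. Apart from the pseudocount, this ratio does not depend on how libraries are scaled. The list leaves out enzymes that act between members: Tm7sf2 acts just after Cyp51, and Ebp between the demethylation steps and Sc5d. The ratios of Msmo1 to Cyp51 and of Sc5d to Hsd17b7 therefore do not compare neighbouring steps. The log2 ratio of Sqle to Fdft1 averaged -1.18 ± 0.188 in KO livers and -1.91 ± 0.514 in WT livers (SD, n = 5 each). It ranged over -1.32 to -0.92 in KO livers and -2.80 to -1.47 in WT livers, so all 5 KO libraries lay above all WT libraries. The exact permutation p was 0.00794, the smallest that 5 against 5 libraries allow, and 0.0317 after Benjamini-Hochberg adjustment over the 8 listed pairs. The log2 ratio of Dhcr7 to Sc5d averaged -2.28 ± 0.0694 in KO livers and -3.00 ± 0.335 in WT livers, again with no overlap, and its exact permutation p values were also 0.00794 and 0.0317. The log2 fold change was thus larger for Sqle than for Fdft1. Dhcr7 averaged higher in KO livers (log2 fold change 0.54) and Sc5d lower (-0.17), so their ratio combines differences of opposite direction. Fdft1 shares exonic bases with Ctsb, and the part of reads of uncertain origin in the ratio of Sqle to Fdft1 was not tested.

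Lss relative to Sqle was lower in KO livers, with a log2 ratio of -0.75 ± 0.412 in KO livers and 0.09 ± 0.652 in WT livers (exact permutation p = 0.0238, adjusted over the pairs 0.0476). Nsdhl relative to Msmo1 was also lower, at -1.82 ± 0.16 in KO livers and -1.34 ± 0.354 in WT livers, with the same p values from the exact permutation test. The ratios of Cyp51 to Lss, Msmo1 to Cyp51, Hsd17b7 to Nsdhl and Sc5d to Hsd17b7 did not pass, with adjusted exact permutation p values from 0.1524 to 0.3016. The 4 ratios that passed kept their sign whichever library was left out. Without KO1, KO2, KO3 or KO4, each left out alone, 0 of the 8 ratios passed in the exact permutation test, with a smallest adjusted p of 0.0635. The sizes moved little there: the difference in log2 ratio was 0.67 to 0.77 for Sqle to Fdft1, against 0.74 with all libraries, and 0.69 to 0.73 for Dhcr7 to Sc5d, against 0.71. The groups of these 2 ratios were apart with all libraries, and leaving out a library cannot make such groups overlap. With 1 KO library fewer, the unadjusted exact permutation p of each was 0.0159. Without WT1, WT2 or WT5, 2 of the 8 ratios passed, Sqle to Fdft1 and Dhcr7 to Sc5d. Leaving out WT1 made the differences smaller, at 0.52 for Sqle to Fdft1 and 0.59 for Dhcr7 to Sc5d. It gave -0.56 for Lss to Sqle, against -0.84 with all libraries, and -0.32 for Nsdhl to Msmo1, against -0.48. Without KO5, Lss to Sqle no longer passed (adjusted exact permutation p = 0.1016) and Sc5d to Hsd17b7 did (0.0476).

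**Figure D4:**
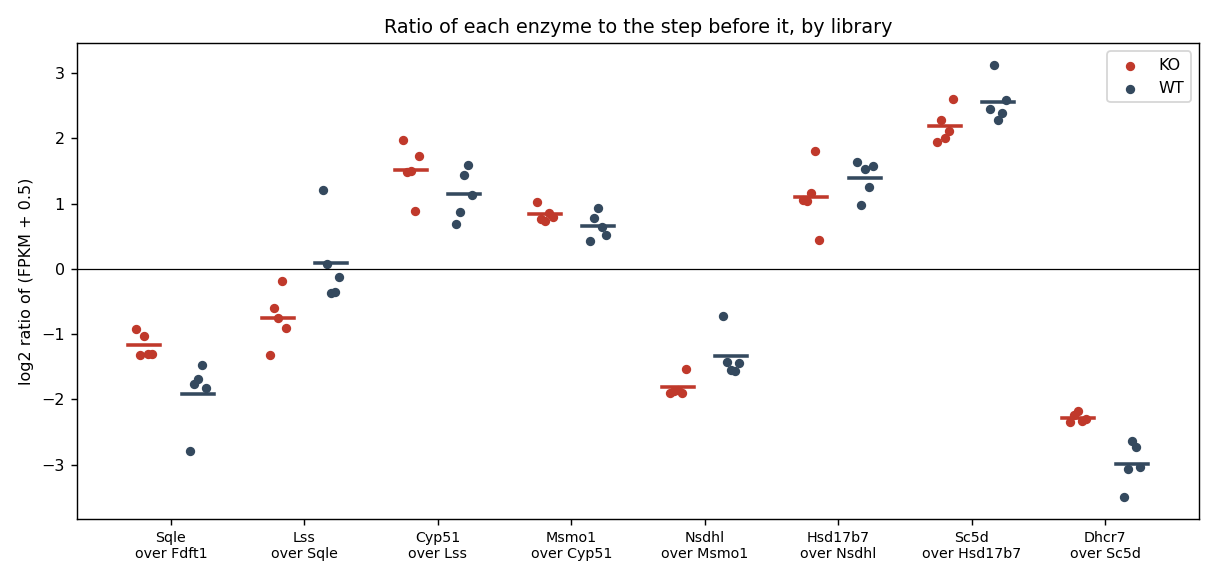
Log2 ratio of (FPKM + 0.5) of each enzyme to the enzyme listed before it, by library. The enzymes are in pathway order, and enzymes that act between them, such as Tm7sf2 and Ebp, are left out. Points are libraries (KO left, WT right of each pair) and horizontal bars are means. The groups are apart for Sqle over Fdft1 and Dhcr7 over Sc5d, with all 5 KO libraries above all WT libraries.

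The remaining ring enzymes and their partner proteins did not move as a block with the 9. Of 12 such genes, enzymes and partners together, 6 averaged higher and 6 lower in KO livers, and the median log2 fold change was 0.01. At an unadjusted limma p under 0.05, 3 of the 12 were higher and 1 lower, beside 2.69% and 9.07% of all genes tested. None passed the adjusted p in limma. Tm7sf2, a reductase of the ring that acts just after Cyp51, was measured at 76.2, 74.24, 67.68, 40.31 and 68.5 FPKM in KO1 to KO5. WT1 to WT5 gave 52.43, 36.43, 42.67, 40.75 and 39.4 FPKM for Tm7sf2. As for the Cyp51 transcript, KO4 lay in the WT range and the other 4 KO libraries above it. Its log2 fold change was 0.60, with a limma adjusted p of 0.1871. Cyb5r3, which feeds electrons to cytochrome b5, had a log2 fold change of 0.19 (limma adjusted p = 0.3187). March6, the ubiquitin ligase that marks squalene epoxidase for breakdown, was the one gene of the list that was lower at an unadjusted p under 0.05, with 26.83 ± 1.44 FPKM in KO livers and 29.72 ± 1.32 FPKM in WT livers, and it was named after its values were seen. Ebp, the isomerase that acts between the demethylation steps and Sc5d, was at 100.7 ± 8.2 FPKM in KO livers and 98.59 ± 4.04 FPKM in WT livers.

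Upstream of Fdft1, the 8 enzymes from acetyl-CoA to farnesyl diphosphate all averaged higher in KO livers, beside 34.9% of all genes tested. Of these 8, 7 had an unadjusted limma p under 0.05, beside 2.69% of all genes tested that were higher at that p. None of the 8 passed the adjusted p, and the median log2 fold change was 0.63. Mvd and Acat2 had log2 fold changes of 0.88 and 0.29, and Hmgcs1 was the gene without an unadjusted p under 0.05. The 7 genes of the branches that leave farnesyl diphosphate for isoprenoids and ubiquinone did not share this. Of these 7, 6 averaged lower in KO livers, as did 8070 of the 12395 genes tested. None of the 7 had an unadjusted p under 0.05 in limma, and the median was -0.13. The lowest p values in that list belonged to Pdss2 (log2 fold change -0.17), Nus1 (-0.13) and Ggps1 (-0.14).

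Among 12 genes of sterol sensing and uptake, 9 averaged higher, 2 of them at an unadjusted limma p under 0.05, and 0 passed the adjusted p. Over all genes tested, 34.9% averaged higher, and 2.69% were higher at an unadjusted limma p under 0.05. Srebf2, which encodes SREBP2, was measured at 14.6, 14.66, 15.3, 11.86 and 13.37 FPKM in KO1 to KO5. In WT1 to WT5 Srebf2 stood at 9.33, 8.74, 11.23, 11.16 and 10.02 FPKM. The groups did not overlap for Srebf2, whose log2 fold change was 0.45 with a limma adjusted p of 0.1036. Mbtps1, a protease that cuts SREBP2, had a log2 fold change of -0.15.

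The genes whose deviations within genotype were most like those of the 9 enzymes were sought among 11176 other genes, without using the difference between genotypes. The closest was Tmem97 (r = 0.985 over 10 libraries), followed by Idi1 (0.97), Dlg3 (0.949), Fdps (0.929), Mvk (0.926) and Paox (0.924). Without WT1 and WT4, r was 0.955 for Tmem97, 0.893 for Idi1, 0.796 for Dlg3, 0.91 for Fdps, 0.746 for Mvk and 0.89 for Paox. Idi1, Fdps and Mvk are enzymes of the mevalonate part of the pathway. Tmem97 was measured at 30.73, 29.6, 27.94, 24.63 and 28.79 FPKM in KO1 to KO5. The WT values, WT1 to WT5, were 21.47, 26.17, 28.15, 31.58 and 25.79 FPKM. KO4 and WT1 were the lowest library of their genotype and WT4 the highest WT library, as for most of the 9 enzymes. The log2 fold change between genotypes was 0.09 for Tmem97 and 0.06 for Dlg3, beside 0.98 for Idi1 and 0.86 for Fdps, so likeness within genotype came with KO to WT differences of different sizes.

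Markers of liver cell types are given here as measured values, and their part in the differences above was not tested. The counts of markers lower in KO livers stand beside 8070 of all 12395 genes tested that averaged lower on the deposited scale. All 5 tested hepatocyte markers averaged higher in KO livers, beside 34.9% of all genes tested, with a median log2 fold change of 0.14. All 6 Kupffer cell and macrophage markers averaged lower in KO livers, with sums of 173.4 to 263.6 FPKM in KO livers and 202.5 to 283.9 FPKM in WT livers. Sinusoidal endothelium markers (3 higher and 3 lower) summed to 104 to 125.3 FPKM in KO livers and 108.9 to 121.4 FPKM in WT livers. Stellate cell and fibroblast markers, 5 of 6 lower, summed to 139 to 156.6 FPKM in KO livers and 144.8 to 189.6 FPKM in WT livers. Cholangiocyte markers, 3 of 4 tested lower, summed to 19.1 to 28.9 FPKM in KO livers and 22.5 to 27.8 FPKM in WT livers. Lymphocyte markers, 5 of 6 lower, summed to 9.52 to 11.2 FPKM in KO livers and 7.82 to 17.0 FPKM in WT livers. Erythroid markers, 3 of 4 lower, summed to 429.3 to 574.4 FPKM in KO livers and 414.9 to 753.1 FPKM in WT livers. Of 4 adipose tissue markers, 1 was at 0 in every library, and they summed to at most 0.59 FPKM in KO livers and 0.41 FPKM in WT livers. Only 1 marker of all these lists, the hepatocyte gene Ahsg, had an unadjusted limma p under 0.05, and it was higher in KO livers. Leaving out KO3, the library with pancreatic transcripts, the log2 fold changes of Sqle, Msmo1 and Sc5d were 1.23, 0.95 and -0.15.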

How the data were processed

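Liver RNA of 5 KO and 5 WT samples was measured. The authors deposited FPKM per gene, a length- and depth-scaled unit, in 1 column per library. The submitters' processing notes name DESeq, DESeq2, RSEM, STAR and R 4.0.2, with build mm10. The sources used here do not give their roles, filters, annotation or strand. FPKM holds no counts, so no count model was fitted, and very abundant transcripts can lower all other values of a library. Depth was estimated from the smallest increments of low FPKM values, of which 91.1% to 95.1% per library came within 0.1 fragment of a whole number.

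Values were taken as log2(FPKM + 0.5), and limma 3.58.1 (R 4.3.3) tested the 12395 genes averaging 0.5 FPKM or more, two-sided, with trend, a robust prior and a Benjamini-Hochberg threshold of 0.05. Fold changes understate differences of low genes. Exact permutation tests over libraries were two-sided. Scalings, pseudocounts, filters, weights, a replicate block and each library left out were tried. Named genes were the members, Etnppl, the 3 lowest p values of each list and the 6 genes most like the members among those averaging 1 FPKM or more, clone and model names aside. March6, Ebp, Hmgcs1, Dbp and Nfil3 were named after their values were seen. Gene models were GRCm38. Members and lists were chosen with earlier results of these data known. Some genes that this rule picks are not reported here.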

Additional observations from a re-analysis of the deposited data

Results flagged for a closer look

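Fdft1 in KO4 (16.26 FPKM) and Cyp51 in KO4 (10.46 FPKM) stood apart from the other KO libraries by Dixon's test, with the gap to the nearest KO library at 0.739 and 0.72 of the KO range, above the critical value of 0.71 for 5 samples. The other KO libraries were at 23.05 to 25.45 FPKM for Fdft1 and 17.8 to 20.66 FPKM for Cyp51. These were 2 flags among 18 groups of 5 libraries, each tested at both ends, where chance flags about 1 in 20 groups.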

How the results depend on the processing

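No member passed an adjusted p of 0.05 in limma under any of the 20 refits, and no log2 fold change of a member changed sign. Their ranges were 0.91 to 1.45 for Sqle, 0.72 to 1.15 for Msmo1, 0.60 to 0.98 for Cyp51 and -0.24 to -0.12 for Sc5d. The number of genes past the threshold, 8 as reported, was 5 with no filter, 5 with no trend and no robust prior, 18 with array weights and 4 to 18 with one library left out, the highest without WT2. Members with all KO above all WT values numbered 2 with median-of-ratios scaling (Sqle and Lss, 1.34% of all genes tested), 1 with quantile normalization (Dhcr7, 1.2%) and 0 to 5 with one library left out. Genes at an unadjusted p under 0.05 split into 334 higher and 1124 lower as reported, 669 and 599 with median-of-ratios scaling and 645 and 679 with quantile normalization. The 4 ratios of an enzyme to the one listed before it that passed became 0 to 4 with one library left out. These alternatives were chosen after seeing the data. Same-numbered KO and WT libraries correlated at -0.02 to 0.20 in their deviations and not all best with their own number, so the numbers were not taken as pairs, although Dbp and Nfil3 had their extremes at the same numbers in both genotypes. With a replicate block, 5 genes passed the threshold and 4 members (Fdft1, Sqle, Lss and Dhcr7) were higher at an unadjusted p under 0.05 (3.25% of all genes tested), against 7 without it. FPKM rounded to 2 decimals limits precision for low genes.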

Other observations

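Of 14 tested genes of sterol esterification, oxidation and export, 10 averaged higher in KO livers, 2 of them at an unadjusted limma p under 0.05, 0 passed the adjusted p, and the median log2 fold change was 0.05. Over all genes tested, 34.9% averaged higher, and 2.69% were higher at an unadjusted limma p under 0.05. Cyp27a1, which opens the acidic route of bile acid synthesis, averaged 208.0 ± 27.3 FPKM in KO livers and 164.9 ± 26.3 FPKM in WT livers, and Cyp7b1, a later enzyme of that route, averaged 11.35 ± 1.96 FPKM in KO livers and 8.90 ± 2.19 FPKM in WT livers. Soat1, which esterifies cholesterol, averaged 1.82 ± 0.61 FPKM in KO livers and 2.35 ± 0.584 FPKM in WT livers.

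Of 10 genes of fatty acid synthesis under SREBP1, 8 averaged higher in KO livers, 2 of them (Acss2 and Fasn) at an unadjusted limma p under 0.05, 0 passed the adjusted p, and the median log2 fold change was 0.14. The shares of all genes tested were 34.9% higher at any p and 2.69% higher at an unadjusted limma p under 0.05. Fasn, fatty acid synthase, averaged 41.52 ± 10.1 FPKM in KO livers and 26.76 ± 3.38 FPKM in WT livers. Acacb, an acetyl-CoA carboxylase, had a log2 fold change of 0.31.

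Of 16 clock and clock output genes, 10 averaged lower in KO livers, as did 8070 of the 12395 genes tested. At an unadjusted limma p under 0.05, 1 was higher (Cry1) and 1 lower (Nr1d2), beside 2.69% and 9.07% of all genes tested. None passed the adjusted p, and the median log2 fold change was -0.11. The output gene Dbp was at 1.13, 8.25, 4.24, 9.59 and 17.33 FPKM in KO1 to KO5 and at 2.71, 5.5, 14.5, 37.91 and 46.24 FPKM in WT1 to WT5. Nfil3, a clock-controlled repressor, was at 28.87, 22.65, 16.76, 10.29 and 9.15 FPKM in KO1 to KO5 and at 21.65, 14.79, 14.24, 9.64 and 6.48 FPKM in WT1 to WT5. In both genotypes Dbp was lowest in the library numbered 1 and highest in the library numbered 5, and Nfil3 was highest in number 1 and lowest in number 5. Nr1d1, a repressor of the clock, had a log2 fold change of -0.47. The sources used here give no times of sampling, and the part of the clock in the members' spread was not tested.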
